A study of Oidiodendron maius Zn with 6 samples.

Results

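A set of 73 gene models of the fungus Oidiodendron maius Zn had lower transcript levels on bovine serum albumin (BSA, a protein) than on either glucose or peat, while their levels on glucose and peat were similar. The 73 were selected by measured values from 16703 models. The total gene reads of the 2 libraries of each condition were summed and turned into counts per library size (CPM, reads per 1000000 gene reads), and BSA and peat were rescaled so that the median ratio to glucose was 1. A member had at least 20 CPM on glucose and on peat, had values on both that were at least 2 times the BSA value after addition of 0.5 CPM, and differed by less than 2-fold between glucose and peat. Of the 7726 models with at least 20 CPM on glucose and on peat, the 73 were 0.945%. The low value on BSA and the similar values on glucose and peat are therefore what defined the set, and they are given as a description with no test.

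All cultures were free-living mycelium of the same strain, grown without a host plant for 45 days on cellulose membranes laid over agar plates of modified Melin-Norkrans medium at pH 4.7, per the labels' protocols. The plates were amended with glucose at 1 g per L, with BSA at 0.1 g per L, or with peat at approximately 10 g dry weight. Because the amendments differed both in kind and in amount, these cannot be told apart. The protocol lists glucose at 1 g per L and an ammonium salt in the basal recipe, and the labels leave unsaid whether the BSA and peat plates held them. The names of the glucose data mark that condition by ammonium, so effects of the carbon source and of the nitrogen source cannot be told apart. From each condition, total RNA gave 1 library of paired reads and 1 of single reads, all of 75 bp.

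O. maius is an ascomycete that forms ericoid mycorrhiza with plants of the heather family and lives in acid soils rich in organic matter. Filamentous fungi take up glucose directly, whereas a protein such as BSA has to be cut by secreted peptidases before its peptides and amino acids enter the cell, and peat is a mixture of partly decayed plant polymers and nitrogen bound to organic matter. The genes used on such sources are under carbon and nitrogen catabolite control in filamentous fungi. The files identify models by JGI protein IDs and do not pair them with gene names, so no role is given to any member below, lists of genes by product name could not be filled, and the mycelium label could not be checked against marker genes. In bulk RNA, fewer cells of a kind and less RNA per cell cannot be told apart.

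The paired-read libraries held 893061 to 1043870 gene reads and the single-read libraries 20008329 to 24690601, so that the paired-read libraries made up 4.06% to 4.27% of the summed reads. Once the effect of read layout shared by all conditions was taken out, the paired-read and single-read counts of a condition deviated by 1.07 times the variance expected from sampling over the 10369 models for which 5 or more reads were expected per paired-read library. Over the 72 members that reached this number of reads the value was 1.2. This is close to sampling noise, so the pair of libraries from each condition was taken as 1 sample (n = 1), and separate cultures are not named in the labels. No difference between conditions below has a replicate check, and the intervals cover counting error only.

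Taken as a whole and before rescaling, the set was close to 3-fold lower on BSA in both read layouts. CPM values per library are given without the rescaling, here and below. The reads of the 73 models summed to 16126 and 15638 CPM in the paired-read and single-read libraries of glucose, to 5576 and 5452 CPM in those of BSA, and to 18007 and 17454 CPM in those of peat. Both BSA libraries lay far below the other 4, which differed from one another by much less. The summed level on glucose was 2.89 times that on BSA in the paired-read libraries and 2.87 times in the single-read libraries, and the summed level on peat was 3.23 and 3.2 times that on BSA. After rescaling, the sums per condition were 15659 CPM on glucose, 6016 on BSA and 18019 on peat, so that both ratios to BSA were smaller. The 4 most abundant members held 39.5% of the summed glucose CPM, so these sums describe mainly a few models.

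The median member differed less than the strongest ones. In this paragraph, medians, ranges and fold classes use values with 0.5 CPM added. The median ratio of glucose to BSA over the 73 was 2.69, with a range of 2.01 to 8.35, and the median ratio of peat to BSA was 2.89, with a range of 2.03 to 8.97. Over all 7726 models the same medians were 1.02 and 0.99. By the smaller of its 2 ratios, a member was most often near the limit, with 41 members under 2.5-fold, 14 from 2.5-fold to 3-fold, 10 from 3-fold to 4-fold and 8 at 4-fold or more. For comparison, 2.77% of the 7726 models were at least 2-fold lower on BSA than on glucose, 2.68% were at least 2-fold lower than on peat, 1.02% were at least 2-fold lower than on both, and 0.142% were at least 4-fold lower than on both. These shares come from the same values as the rule and carry no further information about the members. The exact 95% intervals of both ratios lay above 2 for 55 members and above 1.5 for all 73, with no spread between cultures included. The selection on the same reads largely fixes these counts, which were not made over the 7726 models. The number of members rested on the BSA single-read library and on the scaling. Without that library the rule selected 237 models, 61 of the 73 among them, with 31 at 4-fold or more, and with total count scaling it selected 110, which included all 73.

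**Figure D1:**
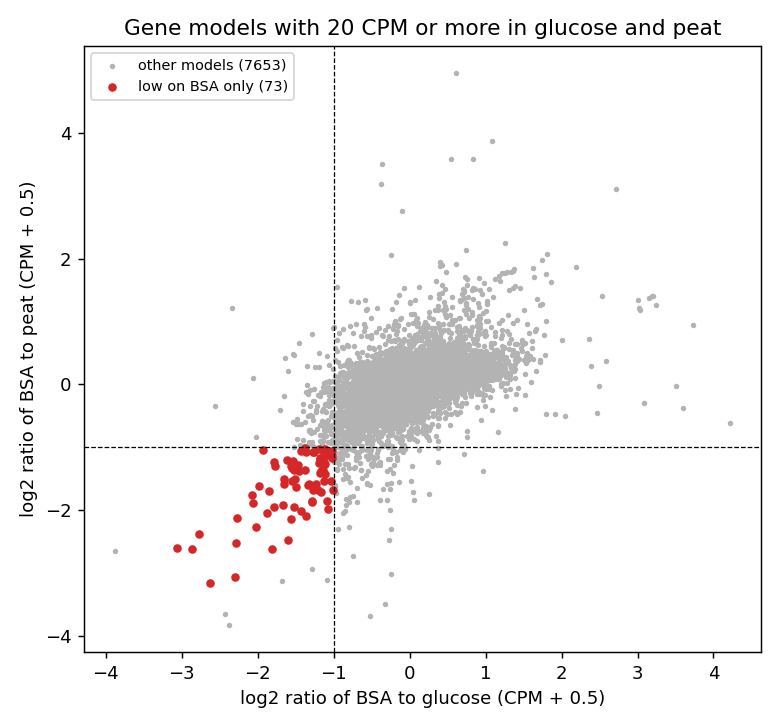
Log2 ratio of BSA to glucose (horizontal axis) and of BSA to peat (vertical axis) for the 7726 gene models with at least 20 CPM on glucose and peat, from reads summed over 2 libraries per condition. The 73 members (red) occupy the lower left corner beyond the dashed 2-fold limits, most of them close to the limits, and 6 grey models in that corner differed at least 2-fold between glucose and peat.

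The members with the largest folds had levels on BSA that were a small part of those on the other sources. CPM values are given first for the paired-read and then for the single-read library, without rescaling, whereas the folds are rescaled. The folds of named models are ratios without the added 0.5 CPM, so they can exceed the ranges given above. Protein ID 149788 (1032 nt) had 37.1 and 33.0 CPM on glucose, 4.48 and 3.7 on BSA and 25.9 and 27.1 on peat. Both BSA libraries were below all 4 others, and the summed reads were 8.07-fold lower on BSA than on glucose (exact 95% interval 6.38 to 10.3) and 6.78-fold lower than on peat (5.36 to 8.68). Only 78 reads of this model were counted on BSA, against 763 on glucose and 696 on peat. Protein ID 16758 (758 nt) had 48.5 and 52.0 CPM on glucose, 5.6 and 7.35 on BSA and 72.8 and 73.7 on peat. Its reads were 6.47-fold lower on BSA than on glucose (5.46 to 7.72) and 9.47-fold lower than on peat (8.03 to 11.2), the largest ratio to peat in the set.

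Protein ID 19143 (557 nt) combined a large fold with a high level. It had 714 and 665 CPM on glucose, 76.1 and 71.8 on BSA, and 513 and 466 on peat. The BSA libraries stood clear of the others, and the reads were 8.4-fold lower than on glucose (7.97 to 8.86) and 6.08-fold lower than on peat (5.76 to 6.42). Per length, the authors' RPKM in the single-read libraries was 1193 on glucose, 129 on BSA and 837 on peat.

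Protein ID 61815 (1701 nt) had 180 and 228 CPM on glucose, 29.1 and 29.7 on BSA, and 157 and 168 on peat. All values on glucose and peat lay above those on BSA, at 6.91-fold (6.36 to 7.53) and 5.27-fold (4.84 to 5.74) the BSA level by summed reads. Protein ID 102867 (1589 nt) had 49.5 and 50.5 CPM on glucose, 6.72 and 9.05 on BSA, and 88.1 and 82.9 on peat, which was 5.12-fold (4.38 to 6.01) and 8.69-fold (7.48 to 10.2) above BSA. Here peat was the highest of the 3 conditions, 1.7-fold above glucose (1.58 to 1.83). Protein ID 21549 (1600 nt) had 63.9 and 64.2 CPM on glucose, 16.8 and 11.3 on BSA, and 70.9 and 73.2 on peat, so that glucose and peat were 5.03-fold (4.38 to 5.78) and 5.91-fold (5.17 to 6.78) above BSA.

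A further pair of members exceeded 4-fold against both sources. Protein ID 115367 (867 nt, which the naming rule did not pick and which was added with its values known) had 50.5 and 40.6 CPM on glucose, 3.36 and 7.5 on BSA, and 36.4 and 35.6 on peat. Its paired-read value on BSA came from 3 reads. Protein ID 85406, with 318 nt the shortest member, had 43.3 and 56.7 CPM on glucose, 10.1 and 12.2 on BSA, and 59.4 and 64.4 on peat. In both models the BSA libraries did not overlap the others, which their selection on the same reads largely fixes.

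The 4 members with the highest levels had smaller folds against glucose than these, at most 3.45. Protein ID 18314 (794 nt) had 2637 and 2542 CPM on glucose, 1187 and 1131 on BSA, and 2698 and 2641 on peat, with ratios to BSA of 2.04 on glucose (2.01 to 2.07) and 2.18 on peat (2.15 to 2.21). Protein ID 201221 (1842 nt) had 1956 and 1803 CPM on glucose, 923 and 810 on BSA, and 2935 and 2772 on peat. It was at the edge of the set with a ratio of glucose to BSA of 2.01 (1.98 to 2.05), whereas its ratio of peat to BSA was 3.19 (3.14 to 3.24). Counting error was small for both models because they had 23696 and 17032 reads on BSA, and the interval of 201221 nevertheless reached below 2.

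Protein ID 16761 (757 nt) had 949.9 and 920.4 CPM on glucose, 202 and 244 on BSA, and 1106 and 995 on peat, 3.45-fold (3.35 to 3.56) and 3.86-fold (3.75 to 3.98) above BSA. Protein ID 16053 (1623 nt) had 911 and 907 CPM on glucose, 275 and 270.1 on BSA, and 1594 and 1619 on peat. Glucose was 3.04-fold (2.95 to 3.13) and peat 5.6-fold (5.44 to 5.76) above BSA in this model, and peat was 1.84-fold above glucose (1.81 to 1.87). In all 4 abundant models both BSA libraries lay below every library of the other conditions. The selection on the same reads largely fixes this, and the same count was not made over all models.

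**Figure D2:**
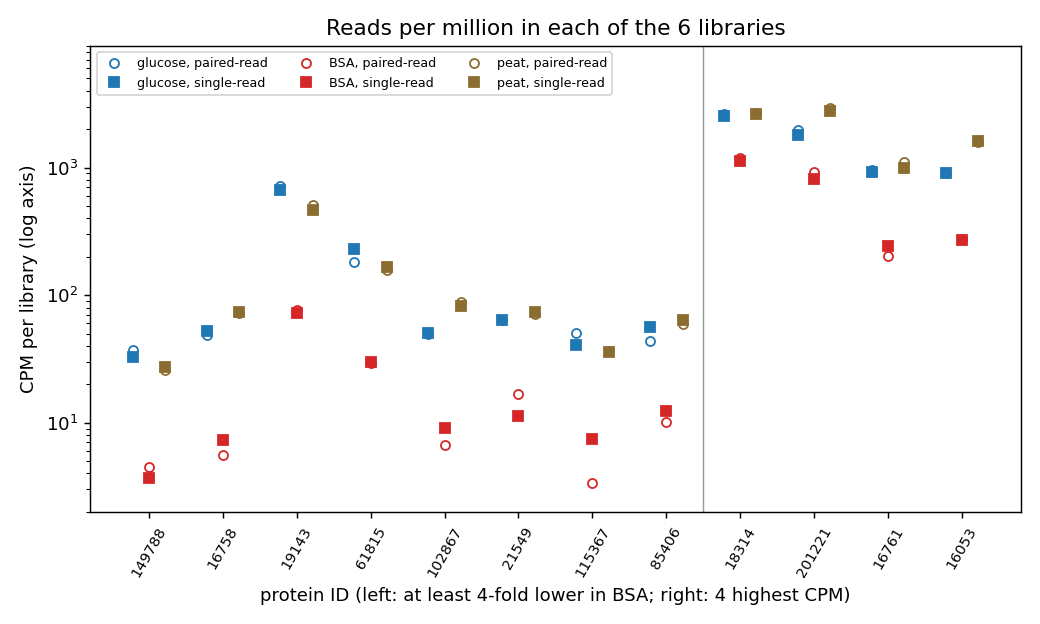
CPM in each of the 6 libraries (log axis) for the 8 members at least 4-fold lower on BSA than on glucose and on peat (left of the grey line) and for the 4 members with the highest CPM (right), with open circles for paired-read and filled squares for single-read libraries. Both BSA values (red) lie below all glucose (blue) and peat (brown) values in each of the 12 models, which their selection on the same reads largely fixes.

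The set spanned a wide range of levels. On glucose the rescaled level ran from 20.01 to 2546 CPM with a median of 58.0 CPM, on BSA from 4.11 to 1250 CPM with a median of 20.3, and on peat from 21.2 to 2865 CPM with a median of 68.2. On BSA, 36 of the 73 members fell below 20 CPM (49.3%), as did 247 of the 7726 models (3.2%), a difference that follows largely from the 2-fold limit of the rule. None had 0 reads in any library. The fewest reads of a member were 3 in the BSA paired-read library and 74 in the BSA single-read library. Members were found at all levels, at 0.995% of the models with 20 to 50 CPM on glucose (28 of 2814), 0.757% of those with 50 to 100 CPM (19 of 2510), 0.791% of those with 100 to 500 CPM (17 of 2149) and 3.56% of those with 500 CPM or more (9 of 253). The smaller fold, which the rule holds at 2 or more, had medians of 2.42, 2.69, 2.36 and 2.45 in these classes. It was 3-fold or more in 5 of the 28, 5 of the 19, 4 of the 17 and 4 of the 9 members. Per length, the median RPKM of the members in the authors' values was 71.9 on glucose, 23.3 on BSA and 71.5 on peat in the single-read libraries, beside 46.3, 41.1 and 44.6 over the 7726 models.

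Glucose and peat gave similar but not identical levels. The median ratio of peat to glucose was 1.02, and 40 members (54.8%) differed by less than 1.2-fold between them, beside 47.6% of the 7726 models. The rule held this ratio between 0.5 and 2 for the members, whereas the 7726 models had no such limit. The range is therefore no finding, and the rule also shapes the shares under 1.2-fold. By counting error alone, 35 members were higher on peat than on glucose, 26 were lower, and the interval of 12 included 1. The same count over the 7726 models was not made, so these numbers have no background beside them. The 35 had a median ratio of 1.32 and a median length of 1212 nt, and the 26 had a median ratio of 0.839 and a median length of 690 nt. At least 1.5-fold more on peat than on glucose was found for 9 members, where 8.87% of all 7726 models passed this limit, and at least 1.5-fold more on glucose for 1 member, where 9.55% passed it.

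The extremes of this ratio show how far members could differ from one another. Protein ID 39671, at 8382 nt the longest member, had 30.9 and 28.0 CPM on glucose, 19.04 and 11.5 on BSA, and 47.9 and 51.6 on peat. Its level on peat was 1.89-fold that on glucose (1.72 to 2.08). Its ratio of glucose to BSA, 2.15 (1.85 to 2.5) by summed reads, rested on the BSA single-read library, without which the log2 ratio of BSA to glucose went from -1.07 to -0.46 and that of BSA to peat from -1.98 to -1.36. The BSA paired-read library that remained held only 17 reads of this model, against 231 in the single-read library. With the length trend removed, its log2 ratio of BSA to glucose was -1.73. At the other end, protein ID 178777 (518 nt) had 120 and 114 CPM on glucose, 30.2 and 26.8 on BSA, and 69.0 and 59.5 on peat. It was 3.85-fold above BSA on glucose (3.51 to 4.23) and 2.08-fold above BSA on peat (1.88 to 2.29), and 1.85-fold higher on glucose than on peat (1.74 to 1.98). The first model thus lay nearer to the glucose limit of the rule and the second nearer to its peat limit.

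**Figure D3:**
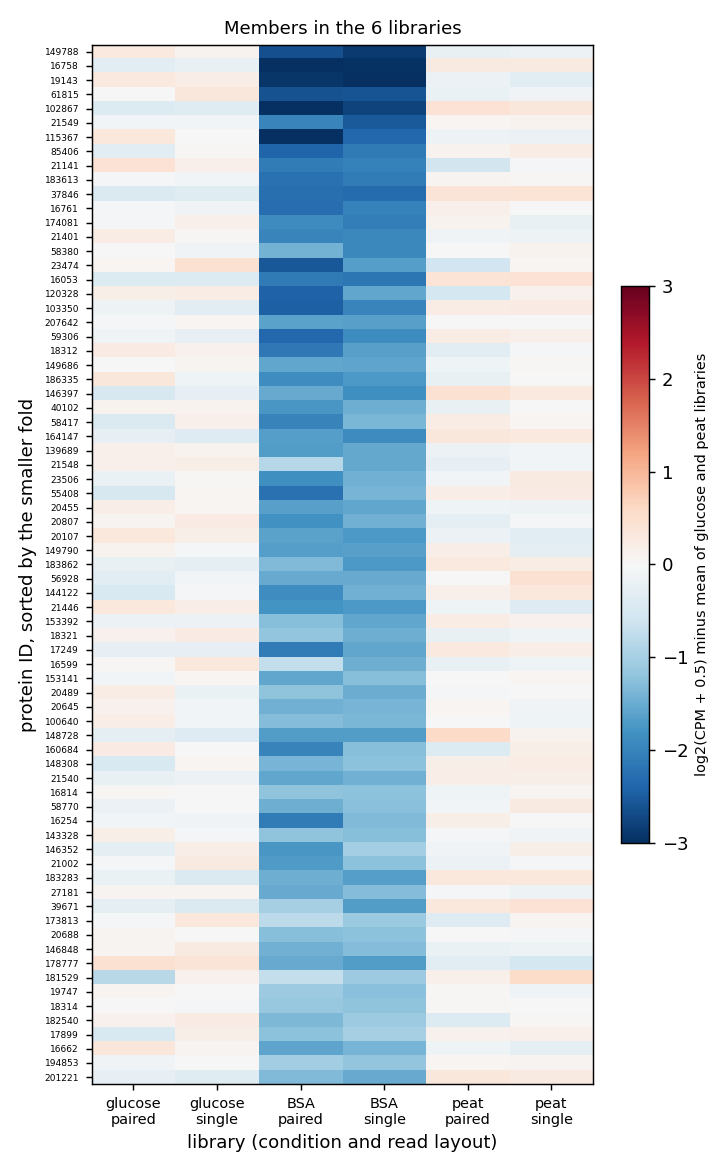
Log2(CPM + 0.5) of the 73 members in each of the 6 libraries, minus the mean of the 4 glucose and peat libraries of the same model, sorted from the largest smaller fold (top) to the lowest. The colour scale ends at 3 log2 units in each direction. Both BSA columns are blue in all rows and mostly paler towards the bottom, while the glucose and peat columns lie nearer to white, the furthest from it being protein ID 181529 in the glucose paired-read column.

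The limits of the rule cut through a continuous range of values. Just inside the fold limit were protein ID 201221, with a smaller ratio of 2.014 after addition of 0.5 CPM, and protein ID 194853 (2614 nt), with 2.024. Just outside were protein ID 162306 (1406 nt), with 1.989, and protein ID 102114 (2501 nt), with 1.987. Without the added 0.5 CPM the smaller ratios of 162306 and 102114 were 2.04 and 2.02, so the addition placed these 2 models outside. The 4 models cannot be separated by their reads. The interval of the smaller ratio, without the addition, was 1.98 to 2.05 for 201221, 1.9 to 2.17 for 194853, 1.73 to 2.41 for 162306 and 1.75 to 2.33 for 102114. At the lower limit of level, protein ID 181529 (1990 nt) was inside with 20.01 CPM on glucose, and protein ID 20750 (1237 nt) was outside with 19.8 CPM on peat. In total 130 models under 20 CPM met the other limits.

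The remaining 6 models at least 2-fold lower on BSA than on both other sources were left out because glucose and peat differed by 2-fold or more. Protein IDs 43346, 106006, 148651, 169483, 183593 and 184808 were named after their values were seen. In the first 5 peat was the higher source, with ratios of peat to glucose of 2.76, 3.2, 2.72, 4.08 and 2.34. The highest of these levels belonged to 183593 (479 nt), with 1033 and 967 CPM on glucose, 157 and 164 on BSA, and 2381 and 2189 on peat. Protein ID 184808 (436 nt) was higher on glucose, with 60.9 and 79.0 CPM there, 3.36 and 4.45 on BSA, and 31.6 and 32.1 on peat. It was thus 16.1-fold (13.1 to 20.1) and 6.81-fold (5.49 to 8.54) above BSA.

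The paired-read libraries served as a second reading of the same samples. When the rule was applied to the single-read libraries alone it selected 74 models, which included all 73. In the paired-read libraries, which that selection did not use, 73 of these 74 were lower on BSA than on glucose and on peat, where 35.5% of the 7726 models were, and 60 were at least 2-fold lower than on both, where 2.33% of the 7726 models were. The median log2 ratio of BSA to glucose over the 74 was -1.44 in the single-read and -1.5 in the paired-read libraries, and that of BSA to peat was -1.52 and -1.54. The median differences were therefore of the same size in both layouts. Since both libraries of a condition stand for 1 sample, this says how well the reads measured these samples and nothing about other cultures.

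The exception was protein ID 181529, which had 10.3 CPM on glucose and 11.2 on BSA in the paired-read libraries, each from 10 reads. In the single-read libraries it had 20.4 CPM on glucose, 8.5 on BSA and 27.9 on peat. In 72 of the 73 members both BSA libraries lay below both glucose libraries, with this model as the exception, and in all 73 both BSA libraries lay below both peat libraries. The members were selected on the summed reads of these same libraries, which largely fixes both counts. The same counts were not made over the models outside the set, so they have no background beside them. Depth limited the paired-read libraries, where a member had a median of 16 reads on BSA. The rule applied to them alone selected 165 models, of which 56 were members.

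**Figure D4:**
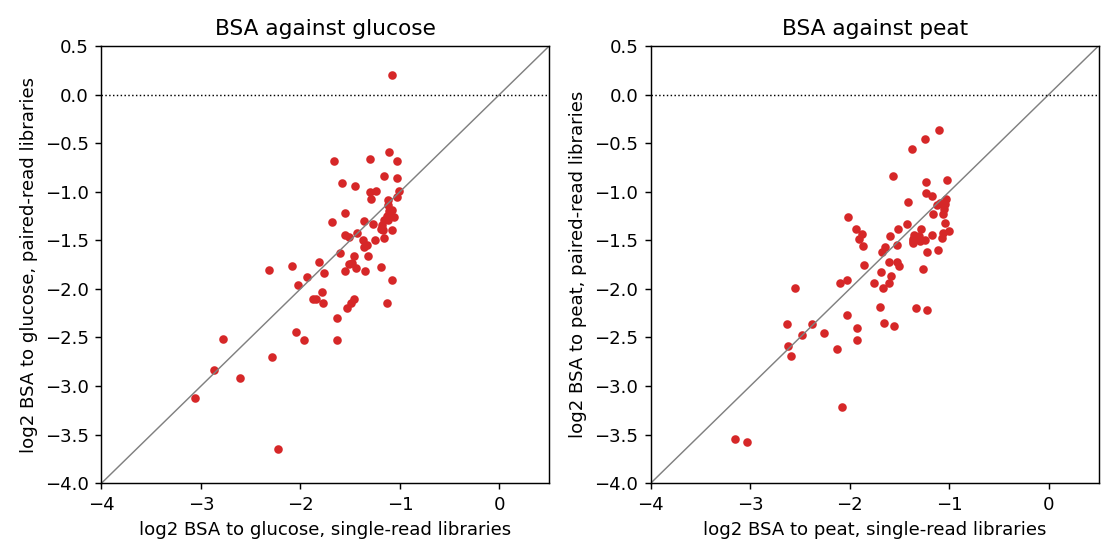
Log2 ratio of BSA to glucose (left) and of BSA to peat (right) of the 73 members in the single-read libraries (horizontal axis) and in the paired-read libraries (vertical axis). Points scatter on both sides of the grey line of equal values, and 1 point, protein ID 181529, lies above the dotted line of no difference in the left panel.

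Members had a lower median length than the models they were drawn from, which is given as a description with no test. Gene length was not part of the rule. The median length was 924 nt over the 73 members, with quartiles of 607 and 1509 nt, and 1458 nt over the 7726 models, with quartiles of 978 and 2060 nt. Models of up to 750 nt made up 34.2% of the members (25) and 13.4% of all (1035), and models over 2000 nt made up 4.11% of the members (3) and 26.5% of all (2047). As a share of their class, members were 2.96% of the models up to 500 nt, 2.22% of those over 500 and up to 750 nt, 1.6% of those up to 1000 nt, 0.661% of those up to 1500 nt and 0.955% of those up to 2000 nt, each class starting where the one before ends. Only 1 of 1298 models over 2000 and up to 3000 nt and 2 of 749 longer ones were members.

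Length also moved with the ratio to glucose among all models. The median ratio of BSA to glucose was 0.713 for the 270 models up to 500 nt and 1.32 for the 749 models over 3000 nt, whereas the median ratio of BSA to peat was 0.974 and 1.02 in these classes. Of the models up to 500 nt, 13% were at least 2-fold lower on BSA than on glucose and 5.19% at least 2-fold lower than on peat, and of those over 3000 nt 0.267% and 0.935% were. When a smooth trend on length was removed from the ratios to glucose, 60 models met the rule, of which 50 were among the 73. The 23 members lost had a median length of 684 nt, and the 10 models gained had 2368 nt. The median log2 ratio over the 73 went from -1.43 to -1.26 for BSA to glucose and stayed at -1.53 and -1.52 for BSA to peat. The part of length in the ratios of single members was not tested.

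**Figure D5:**
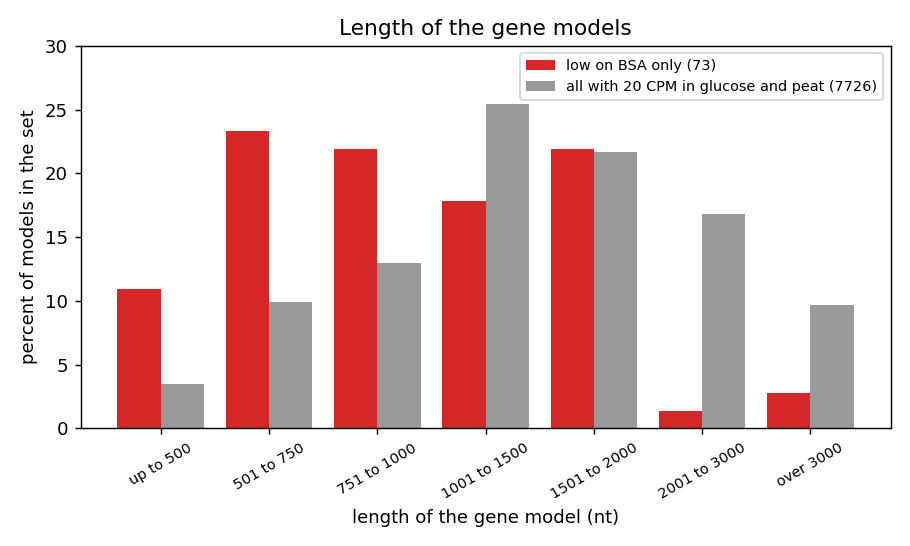
Percent of the 73 members (red) and of the 7726 models with at least 20 CPM on glucose and peat (grey) in 7 classes of gene model length in nt. The red bars exceed the grey ones in the 3 classes up to 1000 nt and fall below them beyond 2000 nt.

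Which of the other sources was higher differed between length classes within the set, and the median ratio did not rise steadily with length. Of the 8 members up to 500 nt, 5 were higher on peat than on glucose and 3 lower, with a median ratio of peat to glucose of 1.04, whereas all models of this length had a median of 0.736. Of the 17 members over 500 and up to 750 nt, 3 were higher on peat and 14 lower, with a median ratio of 0.823 beside 0.773 for all models of this length. Of the 19 members over 1500 nt, 14 were higher on peat, with a median ratio of 1.19 beside 1.13. Within these 19, the median was 1.19 for the 16 members up to 2000 nt. The 1 member over 2000 and up to 3000 nt had 1.11, and the 2 longer ones had a median of 1.43.

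Sets defined in the same way on the other conditions differed in number and in length. With the conditions exchanged, the rule selected 131 models low on glucose only and 96 low on peat only. Their median lengths were 1632 nt and 1162 nt, against 924 nt for the 73, and models up to 750 nt made up 10.7% and 17.7% of them, against 34.2%. The 3 sets share libraries, and these differences were not tested.

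Reads that matched more than 1 gene model played almost no part in the set. Of the 73 members, 72 (98.6%) had no such read in any library, as did 98.3% of the 7726 models. The members' shared reads came to 1 read, in the peat single-read library. The rule applied to unique reads selected the same 73 models.

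Some members had neighbouring ID numbers, a point that was looked at with the values known. When the 16703 IDs were sorted, 4 pairs of members stood next to each other, 16758 with 16761, 18312 with 18314, 21548 with 21549 and 149788 with 149790. Neighbouring numbers need not mark neighbouring genes, and gene positions were not used here. Protein IDs 16758 and 16761 were nearly equal in length, 758 and 757 nt, had no shared reads, and differed in level, at 68.7 and 1216 RPKM in the authors' values of the glucose single-read library. Protein ID 149790 (1410 nt) had 35.1 and 31.9 CPM on glucose, 10.1 and 10.2 on BSA, and 37.4 and 26.9 on peat, so that its ratios to BSA of 2.85 (2.45 to 3.34) on glucose and 2.51 (2.15 to 2.94) on peat were smaller than those of 149788. Protein ID 21548 (998 nt) was likewise less changed than 21549, with 34.0 and 34.6 CPM on glucose, 16.8 and 10.2 on BSA, and 25.9 and 29.2 on peat.

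Around 18314 the low level on BSA was not shared by every model. Protein ID 18312 (479 nt) had 37.1 and 34.4 CPM on glucose, 6.72 and 9.75 on BSA, and 24.9 and 30.4 on peat, and protein ID 18321 (676 nt) had 70.1 and 75.7, 28.0 and 23.0, and 54.6 and 58.6. Protein ID 18318 (921 nt), which lies between 18314 and 18321 in number, had 169 and 200 CPM on glucose, 169 and 155 on BSA, and 180 and 169 on peat. In this model the BSA and peat values did not stand apart, with a ratio of peat to BSA of 1.02 (0.971 to 1.06).

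Over all members, 59 neighbours in number that were no members themselves had at least 20 CPM on glucose and on peat. Of these 59, 6 (10.2%) were at least 1.5-fold lower on BSA than on both, where 3.54% of the 7653 models outside the set were, a difference that was not tested. Their median log2 ratio was -0.24 for BSA to glucose and 0.0015 for BSA to peat.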

How the data were processed

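Per the file headers, the deposited tables give unique gene reads, total gene reads and RPKM for each Oidma1 JGI protein ID. Counts are whole reads as deposited. Model lengths were solved from the RPKM deposited by the authors, and all 90022 values with a read gave whole numbers (tolerance 0.01 nt). The sources used here name no aligner or counter. Members, lists and the rule for named models were chosen with earlier results of these data known. The rule named the 6 largest folds, the 4 highest levels, 2 models on each side of the fold limit, and the extremes of length and of peat to glucose. Others were named after their values were seen. Because the libraries of a condition were counted as 1 sample and the members were chosen by their values, no p-value was computed. The CPM of BSA and peat were divided by 0.907 and 0.97. Folds of named models are ratios of rescaled summed reads with exact (Clopper-Pearson) 95% intervals (scipy 1.17.1). Alternatives used TMM factors and fits of edgeR 4.0.16, size factors of DESeq2 1.42.0, and a lowess trend (statsmodels 0.14.6, fraction 0.3). The rule and the fits were checked on simulated data.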

Additional observations from a re-analysis of the deposited data

How the results depend on the processing

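The count of 73 models stayed within 1.5 times with unique reads, the single-read libraries alone, TMM factors, DESeq2 size factors, removal of the 20 most abundant models, removal of the length trend, both pseudocounts and a 1.5-fold window for glucose and peat. It was 110 with total count scaling, 165 with the paired-read libraries alone, 114, 43 and 203 with a minimum of 10 CPM, of 50 CPM and with none, and 18 and 327 with 3-fold and 1.5-fold limits. Leaving out 1 library gave 73 to 237, with 237 when the single-read library of BSA was omitted (61 of the 73 among them). The 8 models at least 4-fold lower than on both became 17 with the paired-read libraries alone and 8 to 31 when 1 library was left out, 31 when that same library was omitted.

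The median log2 ratio of BSA to glucose, -1.43, was -1.5 with the paired-read libraries alone, -1.56 with total count scaling, -1.34 with DESeq2 size factors, -1.26 with the length trend removed, -1.34 with a pseudocount of 2 CPM and -1.61 to -1.41 without 1 library. That of BSA to peat, -1.53, was -1.62 with total count scaling, -1.55 with TMM factors, -1.46 with a pseudocount of 2 CPM and -1.68 to -1.39 without 1 library. Over the models selected by other limits they were -1.37 and -1.43 (10 CPM), -1.5 (50 CPM, glucose), -1.34 and -1.4 (no minimum), -2.05 and -2.19 (3-fold), -0.897 and -0.887 (1.5-fold), and -1.4 (window of 1.5-fold, peat). The 14 members picked by the naming rule had 504 values under the alternatives, including the edgeR fits with and without read layout. Members named beyond these 14 were left out. Among those left out was protein ID 181529, which was not lower on BSA than on glucose in the paired-read libraries. All 504 were below 0, which their choice largely fixes, 429 lay within the counting interval, and the 4 that moved by over 1.5 times all belonged to protein ID 39671 (-0.46 and -1.36 without the BSA single-read library, -1.26 to peat with the paired-read libraries alone, -1.73 to glucose with the length trend removed). The causes were not tested. Depth limits the paired-read libraries, where 3 reads are 2.87 to 3.36 CPM.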
